A study of Mus musculus with 8 samples.

Results

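Lysophosphatidic acid (LPA) and sphingosine-1-phosphate (S1P) are signalling lipids, and the 10 genes described here encode LPA receptors (Lpar1, Lpar2 and Lpar6), S1P receptors (S1pr1, S1pr2, S1pr3 and S1pr4) and enzymes of the same lipids (Enpp2, Sphk1 and Plpp3). They were chosen by gene symbol with earlier results of these data known, and all 10 were found among the 24584 genes of the tables. RNA-seq was performed on lung tissue of male ICR mice, an outbred strain, aged 6 to 8 weeks and labelled "widetype" for genotype. The 4 samples of the LPS group came from mice injected intraperitoneally with 5 mg/kg of lipopolysaccharide (LPS) from Escherichia coli, a model of septic lung injury. The 4 samples of the LPS + Tan group came from mice that also received 50 mg/kg of tangeretin, a polymethoxylated flavone of citrus peel, by the same route 30 min before LPS. Lungs were taken 12 h after LPS in both groups, so LPS and its timing were shared, and samples without LPS or with tangeretin alone were not analysed here. The question addressed was whether the mRNAs of this lipid system differed between LPS-treated lungs with and without tangeretin.

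LPA and S1P act outside the cell through G protein-coupled receptors. Autotaxin, the product of Enpp2, makes LPA from lysophosphatidylcholine, sphingosine kinases such as that of Sphk1 make S1P from sphingosine, and the membrane phosphatase encoded by Plpp3 removes the phosphate from either lipid outside the cell. In the lung, S1P acting on endothelial S1pr1 is known to tighten the vessel wall, S1pr1 on lymphocytes is known to guide their exit from lymphoid tissue, S1pr4 is a receptor of blood cells, and Lpar1 is best known from fibroblasts and other mesenchymal cells.

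The tables held from 38895654 to 39931970 counted reads in a sample, and the 10 genes had from 47 reads (Lpar2 in LPS replicate 2) to 46219 reads (S1pr1 in LPS + Tan replicate 4) in a sample. Unless another scale is named, levels are CPM, the counts set relative to the sample total after scaling by edgeR's TMM factors, and differences are log2 fold changes of LPS + Tan against LPS from edgeR's quasi-likelihood test on 15706 genes, with p adjusted by the Benjamini-Hochberg method over all of them. All 10 genes passed the count filter of this test. As the labels number the samples without naming animals, p measures the spread between these samples only. In bulk lung tissue, fewer cells of a type and less RNA per cell cannot be told apart. The samples held the markers of lung: the summed level of 10 alveolar type 2 genes was 8998 to 14258 CPM, and none of the 8 alveolar type 1 genes was at 0 in any sample.

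No gene of the system passed an adjusted p below 0.05. The test called 0% of all tested genes at that threshold, with a lowest adjusted p of 0.497, while DESeq2 called 35 genes, edgeR's likelihood ratio test 23 and limma-voom 0, and none of these was one of the 10. At an unadjusted p below 0.05, 2 of the 10 genes, Lpar1 and S1pr3, were lower in the LPS + Tan group, where 2.25% of all tested genes were, and 0 of the 10 were higher, where 2.87% of all were. In either direction the share of all tested genes was 5.12%. As the 10 genes were chosen with earlier results of these data known, this comparison is a description and not a test. The thresholds given in the study's methods for differentially expressed genes, an unadjusted p below 0.05 together with a log2 fold change beyond 1 in size, were passed by 0 of the 10 genes and by 0.649% of all genes. Of the 10 log2 fold changes, 5 were above and 5 below 0, with a median of 0.01, beside a median of 0.01 over all tested genes.

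**Figure D1:**
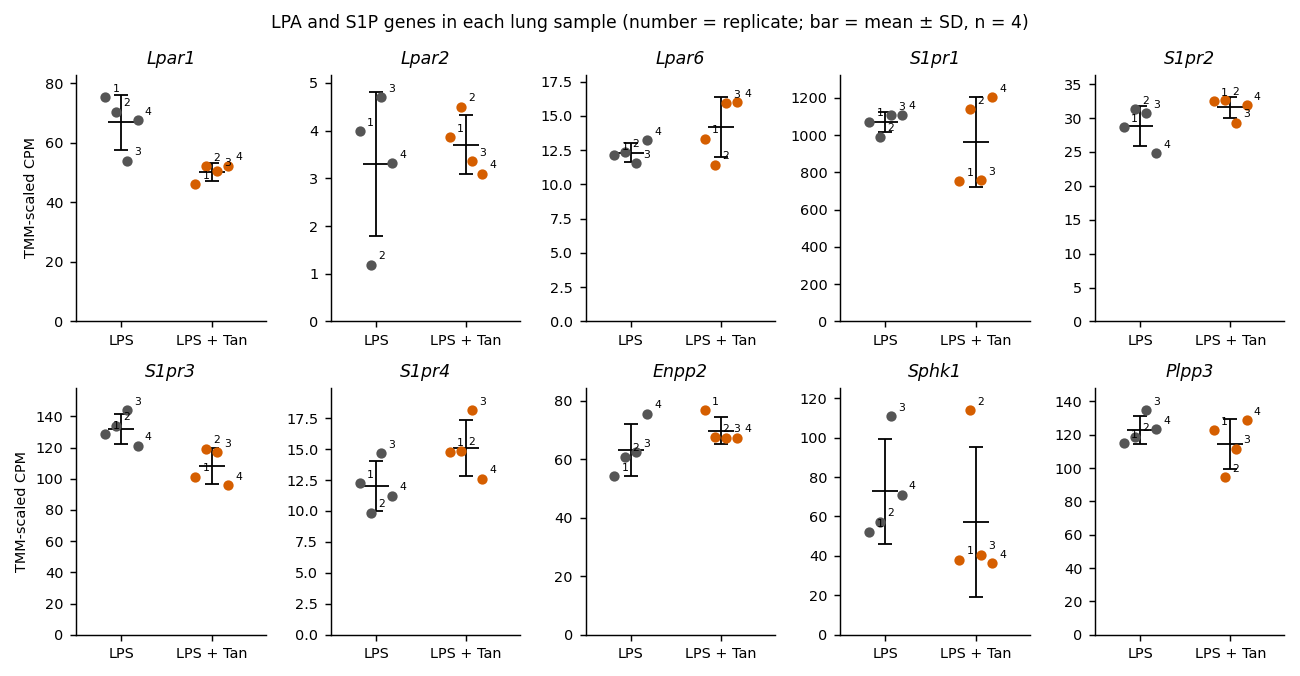
TMM-scaled CPM of each gene in the 4 LPS and 4 LPS + Tan samples, on linear axes from 0, with the replicate number beside each point and bars for the mean ± SD. The LPS + Tan points of Lpar1 and S1pr3 lie below the LPS points, S1pr1 splits into a high and a low pair in the LPS + Tan group, and Sphk1 is high in 1 sample of each group.

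The promoters of Lpar1 and S1pr3 are shown because these were the genes with an unadjusted p below 0.05. The RefSeq promoter table of GRCm38.p6 held 8 of the 10 genes, without S1pr1 and Enpp2. Each window runs from 250 bases before to 50 bases after a transcription start and is written 5′ to 3′ on the strand of the gene. Capitals mark matches, on either strand, to the GC box GGGCGG, the TATA box TATAAA and the short motif CACCC, which is a common core of sites for Krüppel-like factors. The windows of the outermost and the innermost Lpar1 starts lie at chr4:58553442-58553741 (minus strand) and chr4:58499354-58499653 (minus strand), and the window of the S1pr3 start at chr13:51408368-51408667 (plus strand).
Lpar1 outermost: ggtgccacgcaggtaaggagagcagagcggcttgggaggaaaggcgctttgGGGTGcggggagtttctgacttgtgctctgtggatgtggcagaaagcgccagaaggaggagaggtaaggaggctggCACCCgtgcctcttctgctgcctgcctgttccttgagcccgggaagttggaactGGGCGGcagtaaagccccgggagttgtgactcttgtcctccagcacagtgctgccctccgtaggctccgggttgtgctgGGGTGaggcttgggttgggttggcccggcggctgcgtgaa
Lpar1 innermost: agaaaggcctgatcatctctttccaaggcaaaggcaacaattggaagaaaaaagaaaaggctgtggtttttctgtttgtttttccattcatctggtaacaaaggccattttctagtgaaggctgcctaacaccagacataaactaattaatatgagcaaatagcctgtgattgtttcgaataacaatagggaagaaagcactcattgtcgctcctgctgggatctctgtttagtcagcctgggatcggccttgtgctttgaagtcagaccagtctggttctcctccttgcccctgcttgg
S1pr3: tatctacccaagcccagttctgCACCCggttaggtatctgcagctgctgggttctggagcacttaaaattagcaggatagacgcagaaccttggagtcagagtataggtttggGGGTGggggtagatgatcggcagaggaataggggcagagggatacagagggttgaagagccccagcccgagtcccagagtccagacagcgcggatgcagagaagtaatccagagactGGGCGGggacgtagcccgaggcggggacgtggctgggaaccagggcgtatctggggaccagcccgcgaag
The table held a further Lpar1 window, not printed, at chr4:58553244-58553543 (minus strand), which overlaps the outermost one and held 1 GC box and 6 CACCC matches at 71.7% GC. The outermost Lpar1 window held 1 GC box and 3 CACCC matches with a GC content of 63%, whereas the innermost window held 0 matches of any kind at 43.7% GC. The S1pr3 window held 1 GC box and 2 CACCC matches at 59% GC. Of all 32851 promoter windows of this length, 35.7% held a GC box, 13.6% a TATA box and 57.5% a CACCC match, and the median GC content was 52.7%. The counts of reads are per gene and do not tell which Lpar1 start was used.

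Lpar1 encodes an LPA receptor that couples to several classes of G protein, and it lies on chromosome 4 at 58435255 to 58553898, minus strand (GRCm38, GENCODE M21). Its level was 75.4, 70.5, 54.0 and 67.7 CPM in LPS replicates 1 to 4, and 46.1, 52.2, 50.4 and 52.3 CPM in LPS + Tan replicates 1 to 4. No LPS + Tan sample reached the lowest LPS sample, which was true of 1.15% of all tested genes. Lpar1 and S1pr3 were the 2 of the 10 genes whose groups did not overlap on this scale, beside 2.73% of all tested genes. The gap was narrow, between LPS replicate 3 and LPS + Tan replicate 4. On CPM scaled to the sample totals alone, LPS replicate 3 had 51.8 and LPS + Tan replicates 2 and 3 had 52.4 and 53.1, so the groups overlapped. On that scale 0 of the 10 genes separated the groups, beside 3.13% of all tested genes, and 0.783% of all tested genes had every LPS + Tan sample on the low side. The mean was 66.9 ± 9.19 CPM with LPS alone and 50.3 ± 2.93 CPM with LPS + Tan (SD, n = 4 each). The log2 fold change was -0.41 (standard error 0.11), which is 24.9% lower in linear terms. Its unadjusted p was 0.00293 and its adjusted p 0.850 with edgeR, with adjusted p from 0.139 to 0.9999 over the alternatives. The difference was larger than the SD of either group, and Lpar1 ranked 53rd of all tested genes by p. Leaving out single samples moved the log2 fold change between -0.50 and -0.35.

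Fibroblast markers were measured beside it. The summed level of 12 fibroblast genes, none at 0 in any sample, was 4492 to 5885 CPM in the LPS group and 4590 to 5268 CPM in the LPS + Tan group. An unadjusted p below 0.05 was found for 0 of the 12, beside 5.12% of all tested genes. Of the 12 log2 fold changes, 8 were below 0, as were 7571 of all 15706 tested genes, with a median of -0.10. The part of fibroblasts or of any other cell type in the level of Lpar1 was not tested.

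Among the LPA receptors, the balance can also be read within each sample, where no scaling between samples enters. The share of Lpar1 in the summed FPKM of Lpar1 to Lpar6 (FPKM being counts set relative to gene length and sample total) was 50.9%, 46.9%, 44.6% and 47.4% in LPS replicates 1 to 4. In LPS + Tan replicates 1 to 4 it was 36.4%, 40.8%, 38.1% and 37.7%. On this scale the groups did not overlap, but how often shares of other genes separate them was not measured. A share also falls when the rest of the sum rises. The log2 fold changes of Lpar2 to Lpar6 were 0.17, 0.02, 0.79, 0.68 and 0.20. The share alone thus does not tell whether Lpar1 itself was lower. The means of the Lpar1 share were 47.4% ± 2.60 (SD, n = 4) and 38.2% ± 1.86 (SD, n = 4). Lpar6 held 22.7% ± 1.82 (SD, n = 4) of the sum in the LPS group and 27.8% ± 3.51 (SD, n = 4) in the LPS + Tan group. Lpar3 held 25.3% ± 2.88 and 27.6% ± 2.34 (SD, n = 4 each). The shares of 1 sample sum to a fixed total and are not independent of each other. Without Lpar6, whose reads are in doubt for the reason given with its level, Lpar1 held 61.4% ± 2.54 of the remaining sum in the LPS group and 53.0% ± 2.19 in the LPS + Tan group (SD, n = 4 each), and the groups did not overlap, at 59.2% to 64.5% and 50.0% to 55.2%.

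**Figure D2:**
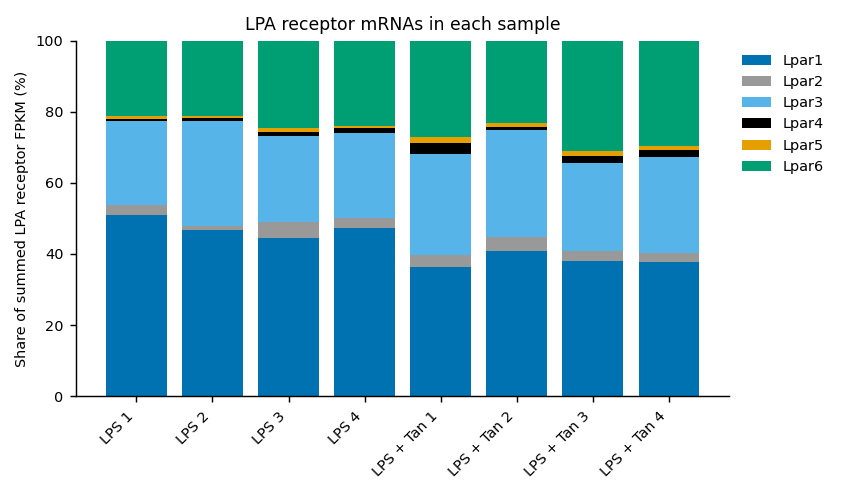
Share (%) of each LPA receptor gene in the summed FPKM of Lpar1 to Lpar6, 1 stacked bar per sample. The lowest segment, Lpar1, spans 44.6% to 50.9% in the LPS samples and 36.4% to 40.8% in the LPS + Tan samples.

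Lpar6 encodes an LPA receptor of a different family, related to the P2Y purinergic receptors, and it lies on chromosome 14 at 73237895 to 73243294 (plus strand), inside the span of Rb1, which runs on the opposite strand. It was 12.1, 12.3, 11.6 and 13.2 CPM in LPS replicates 1 to 4 and 13.3, 11.4, 15.9 and 16.0 CPM in LPS + Tan replicates 1 to 4. The groups overlapped, since LPS + Tan replicate 2 was the lowest of all 8 samples while replicates 3 and 4 were the highest. Its log2 fold change was 0.20 (standard error 0.13, 95% interval -0.08 to 0.48, unadjusted p = 0.138 by edgeR). Without LPS + Tan replicate 2 it was 0.29 with an unadjusted p of 0.0267 by edgeR, and without replicate 3 or 4 of that group it was 0.14 with unadjusted p of 0.337 and 0.302. Of the exonic bases of Lpar6, 7.56% are also exonic in Rb1, and the strand setting of the authors' counting is not given in the sources used here. Rb1, the retinoblastoma tumour suppressor, was 95.2 ± 7.59 CPM with LPS alone and 108 ± 12.3 CPM with LPS + Tan (SD, n = 4 each), a log2 fold change of 0.18. Without LPS + Tan replicate 4 the log2 fold change of Rb1 was 0.10. Reads of the shared bases cannot be assigned to either gene without strand. The shared bases of GENCODE M21 are 8.23% of the length of Rb1 that its FPKM imply, 4960 bases. Even coverage of Rb1 would put 6.92 to 10.2 CPM on them, beside 11.4 to 16.0 CPM for Lpar6. Both the level and the difference of Lpar6 are therefore uncertain.

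Lpar2, on chromosome 8 at 69822429 to 69831102 (plus strand), encodes an LPA receptor found in epithelium and lymphocytes and was the lowest of the 10 genes. It had 3.99, 1.19, 4.70 and 3.32 CPM in LPS replicates 1 to 4 and 3.86, 4.50, 3.35 and 3.09 CPM in LPS + Tan replicates 1 to 4. The spread within the LPS group was set by replicate 2, which had 47 reads where no other sample had fewer than 119. The log2 fold change of 0.17 had a 95% interval of -0.60 to 0.94, and without LPS replicate 2 it was -0.12, so its direction rested on that sample. It was 0.39 without LPS replicate 3, 0.27 without LPS replicate 1 and 0.06 without LPS + Tan replicate 2.

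Of the receptors outside the 10 genes, Lpar5 was the LPA receptor gene with the lowest p in the upward direction. It had 0.785 to 1.02 CPM in the LPS group and 1.12 to 1.70 CPM in the LPS + Tan group, from 31 to 69 reads per sample, and the groups did not overlap on either scale, where 1.58% of all tested genes were higher in every LPS + Tan sample on TMM-scaled CPM and 2.34% on sample totals. Its log2 fold change was 0.68 (standard error 0.24, unadjusted p = 0.0167, adjusted p = 0.924 by edgeR, 0.366 to 0.9999 over the alternatives). Lpar4 was as scarce, at 0.665 to 1.35 CPM in the LPS group and 0.483 to 2.56 CPM in the LPS + Tan group, with a log2 fold change of 0.79 and a standard error of 0.44. Without LPS + Tan replicate 2, the lowest Lpar4 sample, it was 1.09 (unadjusted p = 0.00504 by edgeR), and without LPS + Tan replicate 1, the highest, it was 0.50 (unadjusted p = 0.304). Lpar5 without LPS + Tan replicate 1 was at 0.60 (unadjusted p = 0.0520 by edgeR). Lpar3 had 11.5 to 17.5 CPM in the LPS group and 12.8 to 15.2 CPM in the LPS + Tan group, a log2 fold change of 0.02 (standard error 0.13). The list of 10 other lysophospholipid receptors, all tested, held 1 gene at an unadjusted p below 0.05 in the upward direction (Lpar5) and 0 in the downward direction, beside 2.87% and 2.25% of all tested genes. P2ry10, a receptor of lysophosphatidylserine on lymphocytes, led the downward direction with a log2 fold change of -0.38 (unadjusted p = 0.0823 by edgeR, 0.0227 without LPS replicate 1). Without LPS replicate 2 the value of P2ry10 was -0.23 (unadjusted p = 0.256 by edgeR).

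S1pr3, on chromosome 13 at 51408639 to 51422797 (plus strand), encodes an S1P receptor of vascular smooth muscle and other cells. It was the other gene with an unadjusted p below 0.05. Its level was 128, 134, 144 and 121 CPM in LPS replicates 1 to 4, and 101, 119, 117 and 95.9 CPM in LPS + Tan replicates 1 to 4. All LPS + Tan samples were below all LPS samples, again by a narrow gap, here between LPS replicate 4 and LPS + Tan replicate 2. On sample totals alone the groups overlapped, with 120 CPM in LPS replicate 4 and 123 CPM in LPS + Tan replicate 3. The mean was 132 ± 9.57 CPM with LPS alone and 108 ± 11.5 CPM with LPS + Tan (SD, n = 4 each). The log2 fold change was -0.28 (standard error 0.10), which is 17.8% lower, at an unadjusted p of 0.0149 and an edgeR adjusted p of 0.924 (0.310 to 0.9999 over the alternatives). Leaving out single samples gave -0.33 to -0.23. Gm32834, on the opposite strand, shares 1.01% of the exonic bases of S1pr3 and had 2 reads or fewer in every sample. The summed level of 12 pericyte and smooth muscle genes, none of them at 0 in any sample, was 687 to 852 CPM in the LPS group and 625 to 882 CPM in the LPS + Tan group, with 2 of the 12 higher and 0 lower at an unadjusted p below 0.05, beside 2.87% and 2.25% of all tested genes, and a median log2 fold change of 0.08. The part of these cells in the level of S1pr3 was not tested.

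S1pr1, the receptor that dominates in endothelium, lies on chromosome 3 at 115710433 to 115715072 (minus strand) and was by far the most abundant of the 10 mRNAs. Per length it had a mean of 334 FPKM over the 8 samples and ranked 159th of the 24584 genes. It held 89.3% ± 0.938 (SD, n = 4) of the summed FPKM of the S1P receptors S1pr1 to S1pr5 in the LPS group and 88.6% ± 2.86 (SD, n = 4) in the LPS + Tan group. In CPM it was 1070.5, 990.5, 1106 and 1109.9 in LPS replicates 1 to 4. The LPS + Tan samples fell into a low and a high pair, with 752 and 757 CPM in replicates 1 and 3 and 1139.5 and 1201 CPM in replicates 2 and 4. The low pair was below every LPS sample and the high pair above every one, so the SD was 242 CPM in the LPS + Tan group against 55.5 CPM in the LPS group. Across genes, replicates 1 and 3 were also the most alike of the LPS + Tan samples. Their median squared difference was 7.91 times sampling variance, against 14.3 to 23.0 times for the other pairs, with 23.0 between replicates 2 and 4. Fos was likewise low in replicates 1 and 3, at 29.4 and 31.2 CPM, beside 51.2 and 42.8 CPM in replicates 2 and 4. The split was thus not particular to S1pr1. For S1pr1 the log2 fold change was -0.15 (standard error 0.17, 95% interval -0.52 to 0.22, unadjusted p = 0.383 by edgeR), and it was -0.05 without LPS + Tan replicate 1 or 3, -0.24 without replicate 2 and -0.28 without replicate 4 of that group.

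Endothelial marker lists did not all follow this split of the LPS + Tan samples. The summed level of 12 general endothelial genes was 5091 and 4887 CPM in LPS + Tan replicates 1 and 3, where S1pr1 was low, and 4765 and 4994 CPM in replicates 2 and 4, where it was high. For 8 genes of general capillaries it was 4229 and 3673 CPM in replicates 1 and 3, above the 3039 and 2607 CPM of replicates 2 and 4, so this list was high where S1pr1 was low. Cd93 made up 40.8% of it, and without Cd93 the contrast was smaller, with 2198 and 1957 CPM in replicates 1 and 3 and 1857 and 1759 CPM in replicates 2 and 4. Lyve1 was low in the same samples as S1pr1, at 1225 and 1359 CPM in replicates 1 and 3 and 2199.9 and 1762 CPM in replicates 2 and 4, whereas the other 6 genes of the lymphatic list summed to 271 and 252 CPM in replicates 1 and 3 and 265 and 296 CPM in replicates 2 and 4 and did not divide in this way. The range of the general endothelial sum was 4149 to 4992 CPM in the LPS group, and no gene of these lists was at 0 in any sample. Of the 12 general endothelial genes 2 were higher (Tek and Kdr) and 0 lower at an unadjusted p below 0.05, beside 2.87% and 2.25% of all tested genes, with a median log2 fold change of 0.10. Of the 8 general capillary genes 2 were higher (Tek, which both lists hold, and Sema3c) and 0 lower, beside the same shares. Log2 fold changes above 0 were found for 7 of the 8, with a median of 0.42, and for 8135 of all 15706 tested genes. The part of endothelial content in the level of S1pr1 was not tested.

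**Figure D3:**
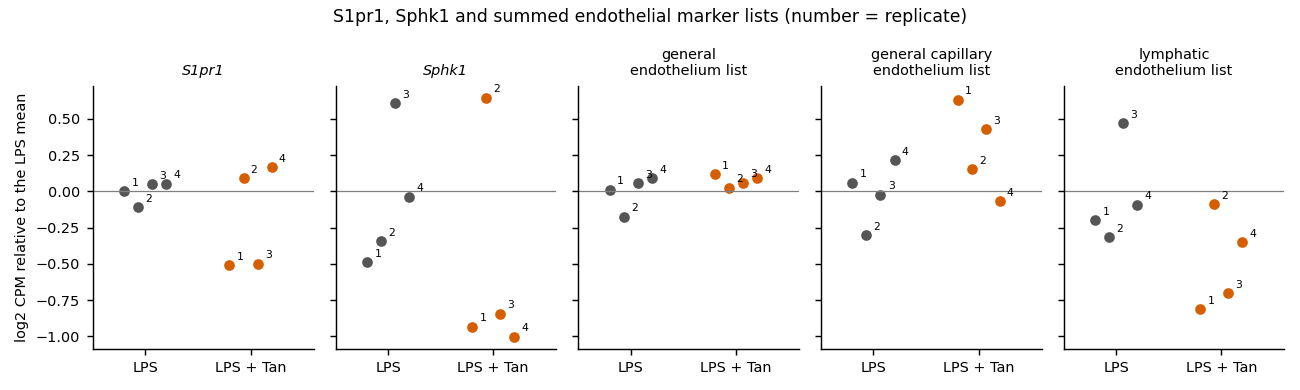
Log2 level of S1pr1, Sphk1 and the summed CPM of 3 endothelial marker lists per sample, as the difference from the mean of the LPS group (line at 0), with replicate numbers. In the LPS + Tan group S1pr1 lies at -0.51 and -0.50 in replicates 1 and 3 and at 0.09 and 0.17 in replicates 2 and 4, while the general endothelium list stays between 0.02 and 0.12.

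S1pr2, on chromosome 9 at 20962361 to 20976781 (minus strand), encodes a receptor known for loosening endothelial contacts and varied least of the 10 genes, with a highest level 1.32 times the lowest. It was 28.7, 31.3, 30.7 and 24.8 CPM in LPS replicates 1 to 4 and 32.4, 32.6, 29.3 and 31.9 CPM in LPS + Tan replicates 1 to 4. The groups overlapped, and the log2 fold change was 0.13 with a 95% interval of -0.08 to 0.33 (unadjusted p = 0.191 by edgeR). Without LPS replicate 4, the lowest sample, it was 0.06 (unadjusted p = 0.491 by edgeR).

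S1pr4, on chromosome 10 at 81497747 to 81500132 (minus strand), encodes a receptor of lymphocytes and myeloid cells and had the log2 fold change furthest above 0 among the 10 genes. It was 12.2, 9.85, 14.7 and 11.2 CPM in LPS replicates 1 to 4 and 14.8, 14.9, 18.1 and 12.6 CPM in LPS + Tan replicates 1 to 4. Only LPS replicate 3 and LPS + Tan replicate 4 broke the separation of the groups. LPS + Tan against LPS gave a log2 fold change of 0.33 (standard error 0.15, 95% interval -0.00 to 0.67), at an unadjusted p of 0.0516 and an edgeR adjusted p of 0.924. The unadjusted p lay just past the threshold and fell below it in 10 of 19 alternatives, among them DESeq2, at 0.0494, and scaling to total counts, at 0.0343. With single samples left out, the log2 fold change of S1pr4 ran from 0.23 without LPS + Tan replicate 3 (unadjusted p = 0.167) to 0.44 without LPS replicate 3 (unadjusted p = 0.0137 by edgeR), and without LPS replicate 2 it was 0.24 (unadjusted p = 0.144). The sum of 12 neutrophil genes, 46.0% of it Lcn2, was 9093 to 12889 CPM in the LPS group and 9330 to 10213 CPM in the LPS + Tan group. That of 11 T and NK cell genes, 67.7% of it Gzma, was 120 to 233 and 105 to 262 CPM. The sum of 9 B cell genes was 29.6 to 46.5 and 25.6 to 37.5 CPM. None of these 3 lists held a gene at an unadjusted p below 0.05, where 5.12% of all tested genes were, or a gene at 0 in any sample. The sum of 12 macrophage and monocyte genes, 63.1% of it Chil3, was 1638 to 2636 CPM in the LPS group and 1681 to 2686 CPM in the LPS + Tan group, with 11 of the 12 log2 fold changes above 0, a median of 0.10 and 1 gene, C1qa, higher at an unadjusted p below 0.05, beside 2.87% of all tested genes. The part of these cells in the level of S1pr4 was not tested. S1pr5, the S1P receptor outside the 10 genes, was 1.47 ± 0.401 and 1.46 ± 0.576 CPM (SD, n = 4 each).

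Enpp2, on chromosome 15 at 54838901 to 54952892 (minus strand), encodes autotaxin, the secreted enzyme that makes most extracellular LPA. Its level was 54.1, 60.8, 62.4 and 75.5 CPM in LPS replicates 1 to 4 and 76.7, 67.5, 67.4 and 67.3 CPM in LPS + Tan replicates 1 to 4. LPS replicate 4 reached into the LPS + Tan range, and the other LPS samples were below it. For Enpp2 the log2 fold change was 0.14 (standard error 0.11, 95% interval -0.09 to 0.38, unadjusted p = 0.210 by edgeR), and without LPS replicate 4 it was 0.24 with an unadjusted p of 0.0320. Without LPS replicate 1 it was 0.07 and without LPS + Tan replicate 1 it was 0.09, with unadjusted p of 0.497 and 0.441 by edgeR. An antisense gene, Gm26684, shares 5.97% of the exonic bases of Enpp2 and had 3 reads or fewer in every sample.

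Sphk1, on chromosome 11 at 116530925 to 116536674 (plus strand), encodes a sphingosine kinase induced by inflammatory signals, and it had the widest log2 interval of the enzymes. It was 51.9, 57.3, 111 and 71.0 CPM in LPS replicates 1 to 4 and 38.1, 114, 40.5 and 36.3 CPM in LPS + Tan replicates 1 to 4. LPS + Tan replicate 2 had the highest level of all samples, and its other 3 samples were below every LPS sample. The mean was 72.8 ± 26.6 CPM with LPS alone and 57.2 ± 37.8 CPM with LPS + Tan (SD, n = 4 each), a difference smaller than either SD. The log2 fold change was -0.35 (standard error 0.39, 95% interval -1.21 to 0.51, unadjusted p = 0.389 by edgeR). Its value moved with single samples, as it was -0.93 without LPS + Tan replicate 2 (unadjusted p = 0.00325, adjusted p = 0.267 by edgeR, with adjusted p of 0.267 to 0.9999 over the alternatives) and -0.07 without LPS replicate 3. Without LPS + Tan replicate 1, 3 or 4 it was -0.20, -0.21 and -0.18. An antisense gene, Gm29292, shares 4.02% of the exonic bases of Sphk1 and was not among the counted genes.

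Lyve1, a gene of lymphatic endothelium that some macrophages also express, was highest in the samples with high Sphk1. These were LPS replicate 3 and LPS + Tan replicate 2. Some genes that lead other marker lists were also highest there. Cdh5 of endothelium had 1601 and 1429 CPM, Pdgfra of fibroblasts 1374 and 1330 CPM, and Lcn2 of neutrophils 6479 and 5285 CPM. Others, such as Cd93 and Sftpc, were highest elsewhere. The pattern was thus not particular to Lyve1, which is the leading gene of the lymphatic marker list. The summed level of its 7 genes, 87.5% of it Lyve1, was 3639 CPM in LPS replicate 3 against 2107 to 2464 CPM in the rest of that group, and 2465 CPM in LPS + Tan replicate 2 against 1496 to 2058 CPM in the rest. Without Lyve1 the list summed to 281, 275, 334 and 285 CPM in LPS replicates 1 to 4 and 271, 265, 252 and 296 CPM in LPS + Tan replicates 1 to 4, so that LPS + Tan replicate 2 was no longer the highest of its group. All 7 genes had log2 fold changes below 0, as had 7571 of all 15706 tested genes, with a median of -0.13. An unadjusted p below 0.05 was found for 0 of the 7, beside 5.12% of all tested genes. The part of lymphatic vessels in the level of Sphk1 was not tested. Sphk2, the other sphingosine kinase, varied far less, at 26.0 ± 1.49 and 26.2 ± 2.66 CPM (SD, n = 4 each). Within the summed FPKM of both kinases, Sphk1 held 67.9%, 68.3%, 80.1% and 74.3% in LPS replicates 1 to 4 and 61.5%, 79.3%, 61.6% and 59.3% in LPS + Tan replicates 1 to 4.

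Plpp3, on chromosome 4 at 105157347 to 105232764 (plus strand), encodes a lipid phosphate phosphatase of endothelium that ends LPA and S1P signalling at the cell surface. It was 115, 119, 135 and 123 CPM in LPS replicates 1 to 4 and 123, 94.3, 111 and 129 CPM in LPS + Tan replicates 1 to 4. The groups overlapped, and LPS + Tan replicate 2 was the lowest sample. Its log2 fold change was -0.10 with a 95% interval of -0.34 to 0.13 (unadjusted p = 0.347 by edgeR). It was -0.02 without LPS + Tan replicate 2, -0.06 without LPS replicate 3 and -0.17 without LPS + Tan replicate 4. Its relative Plpp1, outside the 10 genes, was 134 ± 13.7 CPM with LPS alone and 163 ± 17.0 CPM with LPS + Tan (SD, n = 4 each), a log2 fold change of 0.29 (standard error 0.10, unadjusted p = 0.0199, adjusted p = 0.924 by edgeR, 0.373 to 0.9999 over the alternatives). Without LPS + Tan replicate 1 or LPS replicate 2 the unadjusted p of Plpp1 was 0.0642 and 0.0651 by edgeR. Of the summed FPKM of Plpp1, Plpp2 and Plpp3, Plpp3 held 31.2% ± 2.28 in the LPS group and 26.2% ± 2.99 in the LPS + Tan group (SD, n = 4 each), and LPS + Tan replicate 4, at 30.4%, overlapped the LPS range of 29.1% to 33.4%.

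**Figure D4:**
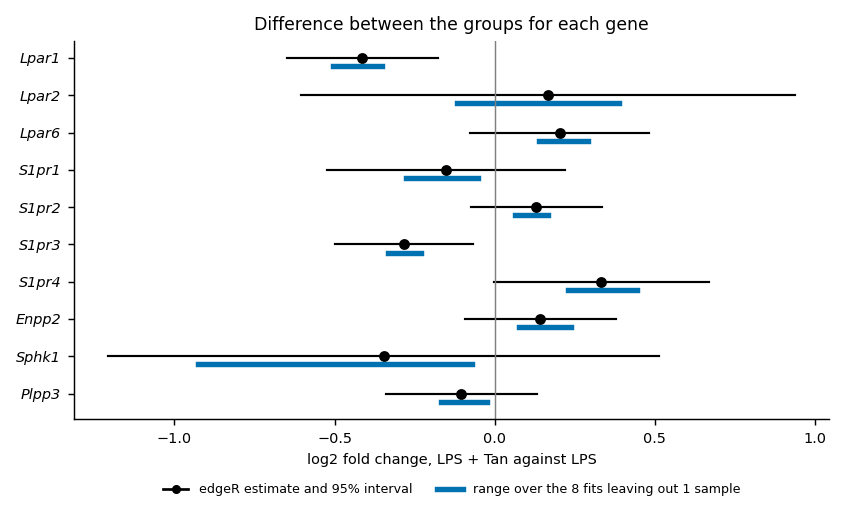
Log2 fold change of LPS + Tan against LPS for each gene (black point) with its 95% interval (thin line) and, in blue, the range over the 8 fits that leave out 1 sample. The intervals of Lpar1 and S1pr3 lie below 0, and the blue range of Lpar2 alone crosses 0.

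Compared per length, the 10 mRNAs spanned from 0.613 FPKM for Lpar2 to 334 FPKM for S1pr1, as means over the 8 samples. S1pr1 was followed by Plpp3 (37.5 FPKM), S1pr3 (26.8 FPKM), Enpp2 (16.7 FPKM), Sphk1 (15.1 FPKM), Lpar1 (9.19 FPKM), S1pr2 (7.70 FPKM), S1pr4 (5.68 FPKM) and Lpar6 (5.38 FPKM). The ranges over samples set S1pr1, at 256 to 385 FPKM, apart from Plpp3, at 30.0 to 40.8 FPKM, and likewise S1pr3 apart from Enpp2 and Lpar6 apart from Lpar2. All other neighbours in this order overlapped in range, so that Plpp3 and S1pr3, the genes from Enpp2 to S1pr2, and S1pr2, S1pr4 and Lpar6 were not separated step by step.

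**Figure D5:**
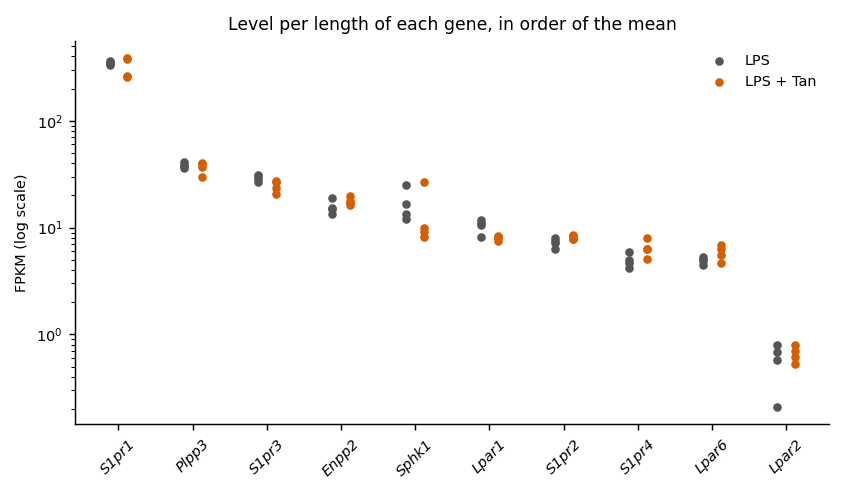
FPKM of each gene (log scale) in the 4 LPS and 4 LPS + Tan samples, in order of the mean over all samples. S1pr1 at 256 to 385 FPKM stands above the rest, and Lpar2 at 0.210 to 0.793 FPKM below.

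The wider pathway was described through 5 lists, with 106 tested genes of 114. At an unadjusted p below 0.05, 7 of the 106 were higher and 4 were lower in the LPS + Tan group, beside 2.87% and 2.25% of all tested genes. By edgeR 0 passed an adjusted p below 0.05. The lists, too, were chosen with earlier results of these data known, so these counts are descriptions. The higher genes numbered 3 without LPS + Tan replicate 1 and 4 without LPS replicate 2, and the lower genes 8 and 7 without LPS + Tan replicates 2 and 4. There were 2 lower genes without LPS + Tan replicate 1 or 3 or LPS replicate 2, 3 or 4. The list of S1P synthesis, breakdown and transport held 24 tested genes, with a median log2 fold change of 0.00, 0 higher and 1 lower. The lower gene was Cers6, a ceramide synthase. It had 143 ± 14.6 CPM with LPS alone and 114 ± 7.64 CPM with LPS + Tan (SD, n = 4 each). The groups of Cers6 did not overlap on TMM-scaled CPM or on sample totals. On these scales, LPS + Tan lay wholly on the low side for 1.15% and 0.783% of all tested genes. The log2 fold change of Cers6 was -0.32 with a standard error of 0.09. Its unadjusted p was 0.00608 and its adjusted p 0.922 by edgeR, with adjusted p of 0.249 to 0.9999 over the alternatives. Sgpl1, the lyase that degrades S1P, and Spns2, which exports S1P from endothelium, had log2 fold changes of -0.03 and 0.04 with standard errors of 0.11 each. Smpd2, a sphingomyelinase, led the upward direction of this list with a log2 fold change of 0.16 (unadjusted p = 0.158 by edgeR), which was 0.11 without LPS + Tan replicate 4.

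The list of LPA synthesis and breakdown held 25 tested genes, with a median log2 fold change of 0.02. At an unadjusted p below 0.05, 1 gene was higher (Plpp1) and 0 were lower, beside 2.87% and 2.25% of all tested genes. Gpam, which acylates glycerol phosphate to LPA inside cells, led the downward direction with a log2 fold change of -0.25 (unadjusted p = 0.118 by edgeR, 0.00637 without LPS + Tan replicate 2). Without LPS replicate 3 the value of Gpam was -0.15 (unadjusted p = 0.320 by edgeR). Of 27 tested genes of G proteins, their effectors and receptor desensitisation, 2 were higher and 1 was lower at an unadjusted p below 0.05, beside 2.87% and 2.25% of all tested genes, with a median of 0.01. Rgs5, a pericyte gene that shortens G protein signals, was higher, at 48.8 ± 3.90 CPM with LPS alone and 67.4 ± 1.58 CPM with LPS + Tan (SD, n = 4 each), a log2 fold change of 0.47 (standard error 0.08). Every LPS + Tan sample was above every LPS sample, as for 1.58% of all tested genes on TMM-scaled CPM and 2.34% on sample totals. Rgs5 ranked 1st of all tested genes by p. Its adjusted p was 0.497 by edgeR and ran from 0.000673, with DESeq2, to 0.9999 over the alternatives. Gna13, a G protein alpha subunit, was 305 ± 19.2 and 260.2 ± 28.5 CPM (SD, n = 4 each), a log2 fold change of -0.23 (standard error 0.10, unadjusted p = 0.0425 by edgeR), and the p was 0.0610 to 0.117 without LPS + Tan replicate 1 or 3 or LPS replicate 2, 3 or 4. Of 20 genes induced by the transcriptional regulators SRF or YAP, 3 were on the higher and 2 on the lower side at an unadjusted p below 0.05, beside 2.87% and 2.25% of all tested genes, with a median of 0.08. They were led by Ajuba, a LIM domain protein, at a log2 fold change of 0.38 (unadjusted p = 0.00297), and by Fos, an immediate early gene, at -0.75 (unadjusted p = 0.00270, both by edgeR). For both genes edgeR's adjusted p was 0.850, and the lowest over the alternatives was 0.153 for Ajuba and 0.0750 for Fos.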

How the data were processed

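Lung RNA of 8 samples (4 LPS, 4 LPS + Tan) was sequenced. The authors deposited raw read counts per gene and FPKM values, which equal those counts set relative to the length of the gene and the total of the sample. The submitters' processing notes list GRCm38 and mm10. The aligner, annotation, counter and strand setting were not given in the sources used here, and the labels name other extraction and library kits than the study's methods. All 8 columns of each table matched a label (0 were left over).

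The main test was the quasi-likelihood test of edgeR 4.0.16 (R 4.3.3) on the counts, with filterByExpr, TMM factors and no covariate. Standard errors are the log2 fold change divided by the square root of F. Totals were 38895654 to 39931970 reads per sample. Squared differences between replicate libraries, as a median over genes, were 7.83 to 23.0 times those of sampling noise alone. Alternatives were DESeq2 1.42.0, the likelihood ratio test, limma-voom (limma 3.58.1), RLE, upper-quartile and total-count scaling, no filter, 1 CPM in 4 samples, limma on log2(FPKM + 1) and log2(FPKM + 0.1), the replicate block and each sample left out. Scripts were tested on simulated data.

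The genes and lists were chosen with earlier results of these data known. Named are the 10 genes, from each pathway list the gene with the lowest p in each direction, Lpar3, Lpar4, Lpar5, S1pr5, Sphk2, Sgpl1, Spns2, Plpp1, genes that share exonic bases with a member, and the 3 genes most correlated with Lpar1, Enpp2 and S1pr1. Those most correlated with Sphk1 were added after its values were seen.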

Additional observations from a re-analysis of the deposited data

Results flagged for a closer look

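Of 58 groups of 4 samples examined in log2(CPM + 0.1), 5 had a sample far from the others, where chance gives about 2.9. For each, the distance from that sample to the nearest other was divided by the distance between the highest and lowest of the 4. Sphk1 was highest in LPS + Tan replicate 2, with 114 CPM against 40.5 CPM in the next sample, a share of 0.904. Enpp2 was highest in LPS + Tan replicate 1, with 76.7 CPM against 67.5 CPM, a share of 0.983, because the other 3 samples lay close together. Gpam was highest in LPS + Tan replicate 2, with 214 CPM against 154 CPM, a share of 0.839. Ajuba was lowest in LPS + Tan replicate 4, with 27.7 CPM against 31.0 CPM, a share of 0.869. Gm26684 had reads in LPS replicate 1 alone of its group, a share of 1.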

How the results depend on the processing

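Of 190 values of the 10 genes under 19 alternatives, 176 kept their direction and their side of an unadjusted p of 0.05, and none had an adjusted p below 0.05, the lowest being 0.139 for Lpar1 with DESeq2. Lpar1 and S1pr3 stayed below an unadjusted p of 0.05 in all 19. The count of higher genes among the 10 was 0 and went to 1 with DESeq2, limma on log2(FPKM + 0.1) and on log2(FPKM + 1), limma-voom, no count filter, the replicate block, total counts only and upper-quartile scaling, each time through S1pr4, and ranged from 0 to 1 when single samples were left out, through S1pr4, Lpar6 or Enpp2. That of lower genes was 2 in each alternative except without LPS + Tan replicate 2, where Sphk1 made it 3. With single samples left out, the 7 higher and 4 lower pathway genes became 3 (without LPS + Tan replicate 1) to 10 higher (without LPS + Tan replicate 2 or 4), and from 2 to 8 lower. It was 4 higher without LPS replicate 2. The 2 lower came without LPS replicate 2, 3 or 4 or LPS + Tan replicate 1 or 3, and the larger counts of lower genes were 8 without LPS + Tan replicate 2 and 7 without LPS + Tan replicate 4. Some directions turned. With single samples left out, log2 fold changes ran from -0.12 to 0.39 for Lpar2, -0.066 to 0.14 for Lpar3, -0.25 to 0.21 for S1pr5, -0.065 to 0.045 for Sphk2, -0.096 to 0.051 for Sgpl1 and -0.023 to 0.11 for Spns2. Total counts only gave 0.044 for S1pr5 and 0.015 for Sgpl1, limma on log2(FPKM + 1) gave 0.0089 for S1pr5 and 0.0052 for Sgpl1, and limma on log2(FPKM + 0.1) gave 0.0050 for Sgpl1. Of the values of the other named genes, 288 kept direction and side, 5 moved past the threshold, 11 moved back behind it (Gna13, Plpp1 and Lpar5) and 19 turned. The cause of these turns was not tested.

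Replicate numbers did not pair the samples: the deviations of same-numbered samples from their group means correlated at -0.15 to 0.12, and 0 of 4 samples correlated best with their own number. With the replicate block, S1pr4 had a log2 fold change of 0.33 and an unadjusted p of 0.0238, Lpar1 and S1pr3 stayed lower, and Gna13 had an unadjusted p of 0.0675 (edgeR). Lpar2, Lpar4, Lpar5 and S1pr5 rested on the fewest reads, and 4 samples a group leave wide intervals for genes such as Sphk1.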

Other observations

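For a few of the genes, those whose log2 CPM ran most alike over the 8 samples were sought among the 15706 tested. All correlations share the same libraries and were picked as the highest of many, so they are descriptions only. Nearest to Lpar1 were Rsph4a (Pearson r = 0.98, 11.4 to 18.8 CPM), Armc9 (r = 0.97, 3.94 to 6.06 CPM) and Nme9 (r = 0.94, 2.29 to 4.28 CPM), whose log2 fold changes were -0.34, -0.32 and -0.51. Their unadjusted p were 0.0213, 0.0443 and 0.0148 by edgeR. Nearest to S1pr1 were Ppp2r2a (r = 0.99, 83.6 to 105 CPM), Nuak2 (r = 0.99, 41.9 to 79.8 CPM) and Rhoc (r = 0.98, 223 to 351 CPM), with log2 fold changes of -0.06, -0.20 and -0.14. Nearest to Enpp2 were Palb2 (r = 0.98), Rbfox3 (r = 0.96) and Gtse1 (r = 0.94), each below 3.4 CPM in every sample. For Sphk1, which was added after its values were seen, they were Arih2 (r = 0.99, 53.6 to 75.5 CPM), Tbc1d9 (r = 0.99, 11.7 to 20.2 CPM) and Clip2 (r = 0.99, 35.9 to 58.2 CPM).

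Other marker lists were measured as well. The sum of 8 platelet genes was 33.5 to 38.6 CPM in the LPS group and 20.7 to 39.2 CPM in the LPS + Tan group, with 1 gene lower at an unadjusted p below 0.05, beside 2.25% of all tested genes. The sum of 8 erythroid genes was 1429 to 3458 CPM and 1330 to 2180 CPM, with 0 genes at an unadjusted p below 0.05, beside 5.12% of all tested genes. Their log2 fold changes were below 0 for all 8, with a median of -0.37, and for 7571 of all 15706 tested genes. The sum of 8 aerocyte genes was 1521 to 1826 CPM and 1736 to 1888 CPM, with 2 genes higher at an unadjusted p below 0.05 (Tbx2, and Kdr, which the general endothelial list also holds), beside 2.87% of all tested genes.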
